A study of Mus musculus with 10 samples.

Results

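Matrix proteases and their inhibitors were read as a gene family across mouse colon tissue and colon organoids with and without p53. The family was taken by name: every array probe whose gene symbol starts with Mmp, Timp, Adam or Adamts followed by a digit. This gave 155 probes of 80 genes, out of 56605 probes that name 25160 genes. The 80 genes were 34 ADAM, 19 ADAMTS, 23 MMP and 4 TIMP genes. The choice used no measured value.

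Matrix metalloproteinases (MMPs) are zinc enzymes that cut collagens, laminins and other matrix proteins, mostly outside the cell. Tissue inhibitors of metalloproteinases (TIMPs) bind their active site and block them. ADAMs are membrane-bound relatives that release growth factors, receptors and adhesion proteins from the cell surface, and ADAMTS enzymes are secreted relatives that cut proteoglycans or trim procollagens. In the gut, fibroblasts and leukocytes make most secreted MMPs after injury, while the epithelium is known for membrane-bound ADAMs such as Adam10 and Adam17.

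The RNA came from colon of male mice and from cultures of colon epithelium, and was hybridised to 10 Agilent 2-colour arrays. The tissue groups were 2 p53 knockout (KO) and 2 wild-type (WT) mice, all taken 2 months after dextran sodium sulfate (DSS), a polymer that injures the colon lining, given at 2% for 5 to 7 days. The KO mice combined Trp53 fl/fl, an allele that recombination removes, with Axin2CreERT2, a recombinase that tamoxifen switches on in cells expressing Axin2, a Wnt target gene. Cells outside that lineage keep p53 in this model. The labels do not state the age of the mice, nor which alleles or injections the WT mice had. Each KO mouse was paired with 1 WT mouse on 2 arrays with swapped dyes.

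The organoid groups were 2 samples each of WT, KO and KOWI, set against each other on 6 arrays. KO organoids came from VillinCreERT2 x Trp53fl/fl mice, in which the recombinase is limited to intestinal epithelium, with 800 nM 4OH-tamoxifen for 2 days and then Nutlin-3A, which stops cells that still have p53. KOWI, Wnt-independent by label, were KO organoids cultured with neither surrogate Wnt (sWnt) nor CHIR, a GSK3 inhibitor that switches on Wnt signalling. WT and KO had full medium with 0.328 nM sWnt and 3 µM CHIR. The full medium also held 25% R-spondin, noggin at 100 ng/ml and EGF at 50 ng/ml. The labels do not state which recombinase or tamoxifen the WT organoids had. All 3 groups grew in Cultrex, a basement membrane extract, and all had A83-01, a blocker of TGF-beta receptors, at 0.5 µM. Between KOWI and KO, effects of medium, of adaptation and of selection cannot be told apart. Whether the 2 organoid replicates of a group had different donor mice is not in the labels, so the spread behind organoid p-values may be technical. Replicate 1 was always in Cy3 and replicate 2 in Cy5, so each organoid array set a replicate 1 against a replicate 2. Organoid ratios given per replicate are therefore differences of fitted sample values, not of samples on 1 array. The labels do not say that samples with equal numbers were matched.

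Between 44.6% and 59.1% of spots per channel were well above background. The scanner software marked 13.7% to 16.3% of spots as outliers on the 4 arrays with KOWI, against 0.808% to 4.41% on the other 6, and such spots were dropped. The probe for Trp53, which was not placed against the deleted exons, was well above background in 4 of 4 WT organoid channels and in 0 of 4 KO and 0 of 4 KOWI channels. The tissue pairs gave log2 ratios of -0.46 and 0.04 for it. Of the epithelial markers, 12 of 12 were well above background in all 8 tissue and all 12 organoid channels. In organoids, 6 of 13 fibroblast markers, among them Col1a2, Col3a1, Dcn and Pdgfra, were well above background in no channel. Another 2 of 13, Fbln1 and Pdgfrb, were in all 12. Some markers of macrophages, neutrophils, T cells and endothelium were also in all 12, as given below.

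The promoters of 4 members are shown because the organoid and tissue results turn on them: Adam8, Adamts1 and Mmp11 were the only members past the test in any comparison, and Mmp7 differed most between mouse pairs. Each runs from 250 bases before to 50 after the RefSeq start, 5′ to 3′ on the coding strand, build GRCm38.p6. They lie at chr7:139992513-139992812 (minus strand) for Adam8, chr16:85803064-85803363 (minus) for Adamts1, chr10:75932453-75932752 (minus) for Mmp11 and chr9:7691840-7692139 (plus) for Mmp7. Capitals mark matches to motifs of transcription factors that respond to Wnt, p53 or injury signals.
Adam8 promoter: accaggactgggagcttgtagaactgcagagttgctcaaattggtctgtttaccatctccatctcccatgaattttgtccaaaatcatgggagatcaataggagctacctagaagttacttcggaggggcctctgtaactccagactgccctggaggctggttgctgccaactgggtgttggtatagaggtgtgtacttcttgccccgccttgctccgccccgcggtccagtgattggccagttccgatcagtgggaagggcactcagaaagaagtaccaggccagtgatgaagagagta
Adamts1 promoter: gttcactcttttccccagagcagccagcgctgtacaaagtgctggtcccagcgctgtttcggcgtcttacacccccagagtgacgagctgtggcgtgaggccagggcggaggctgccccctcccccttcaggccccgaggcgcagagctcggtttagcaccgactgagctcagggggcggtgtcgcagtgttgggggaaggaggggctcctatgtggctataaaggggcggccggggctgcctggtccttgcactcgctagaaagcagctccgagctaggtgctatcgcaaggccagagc
Mmp11 promoter: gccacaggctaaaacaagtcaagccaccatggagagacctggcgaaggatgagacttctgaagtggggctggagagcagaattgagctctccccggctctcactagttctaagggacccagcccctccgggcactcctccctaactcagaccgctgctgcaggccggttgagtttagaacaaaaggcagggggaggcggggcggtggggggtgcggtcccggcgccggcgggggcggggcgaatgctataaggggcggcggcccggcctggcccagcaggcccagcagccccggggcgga
Mmp7 promoter: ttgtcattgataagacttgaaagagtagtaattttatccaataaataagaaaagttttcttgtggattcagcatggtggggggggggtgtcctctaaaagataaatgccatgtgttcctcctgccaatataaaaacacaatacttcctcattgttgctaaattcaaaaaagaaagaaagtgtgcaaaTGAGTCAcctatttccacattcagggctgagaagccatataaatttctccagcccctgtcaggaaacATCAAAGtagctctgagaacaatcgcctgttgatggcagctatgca
The array probes themselves lie, on mm9, at chr7:147164873-147164932 for Adam8, chr16:85795044-85795103 for Adamts1, chr10:75386026-75386085 for Mmp11 and chr9:7699476-7699535 for Mmp7. The motifs searched on both strands were TGANTCA for AP-1, CTTTGAT for TCF/LEF, the factors through which Wnt signalling acts, and the p53 half-site. The Adam8, Adamts1 and Mmp11 windows held none of them. The Mmp7 window held TGAGTCA from 63 bases before the start and ATCAAAG, the TCF/LEF motif on the other strand, from 4 bases after it. Of 32851 mouse promoters in the table, 7.81% held the AP-1 motif, 3.73% the TCF/LEF motif and 8.36% the p53 half-site. Of the 55 promoters of the 50 members in that table, 13 held AP-1 (23.6%), 2 held TCF/LEF (3.64%) and 4 held the p53 half-site (7.27%). The 2 TCF/LEF matches are the same site of Mmp7 seen from 2 annotated starts. Among promoters of members tested, AP-1 was in 5 of 27 for tissue (18.5%) and in 1 of 14 for organoids (7.14%). Guanine and cytosine made up 39% of the Mmp7 window, 52.3% of Adam8, 64.7% of Adamts1 and 67% of Mmp11, against a median of 52.7% over all promoters.

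Which members could be read differed between tissue and organoids. A gene passed the filter where 1 group or more had its brightest probe well above background in all of that group's channels. In tissue 33 of 80 members passed and all 33 were tested, 3 of them (Adam28, Mmp19 and Mmp23) through the KO mice alone. In organoids 24 passed, of which Adam2, Adam5, Adam33, Mmp17 and Timp1 did so through KOWI alone and Timp4 through KO alone. Of the 24, 18 were tested and 6 could not be fitted because outlier spots left their samples unconnected: Adam2, Adam5, Mmp14, Mmp17, Mmp19 and Mmp28. By that probe, both materials shared 19 members, 14 passed only in tissue, 5 only in organoids and 42 in neither. No member was saturated on any array.

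Detection followed the classes unevenly. All 4 TIMPs passed in both materials. Of the 7 ADAMTS proteoglycanases, which cut aggrecan and versican, 6 passed in tissue and 3 in organoids. Both gelatinases, Mmp2 and Mmp9, and Mmp13, the 1 collagenase of 4 that passed, were read only in tissue. The stromelysins Mmp3 and Mmp10, the procollagen N-proteinases Adamts2 and Adamts14, Adamts7, Adamts8, Adamts9, Adamts20, Adam19, Adam28 and Mmp23 completed the 14 read only in tissue by their brightest probe. A dimmer probe of Adamts9 was above background in organoids. Of those 14, Mmp2, Mmp3, Mmp9, Adam28, Adamts2, Adamts8 and Adamts14 were well above background in 0 of 12 organoid channels. Of 34 ADAMs, a class rich in testis genes, 9 passed in tissue and 10 in organoids. The 5 that passed only in organoids were Adam2, Adam5, Adam11, the membrane-anchored Mmp17 and the epidermal Mmp28. Known sites are testis for Adam2 and Adam5 and brain for Adam11. The filter kept spots marked as outliers. Adam2 and Adam5 had 3 of 6 organoid arrays without such a mark and Mmp17 and Mmp28 had 2, and these were not tested. Adam5 was also well above background in 3 of 4 KO and 3 of 4 WT tissue channels. A dimmer probe of Mmp17 was above background in tissue too, with a log2 KO over WT of 0.30. The arrays of tissue and organoids were on separate slides, so their levels were not compared.

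In colon tissue 2 months after injury, no member differed between KO and WT past the test, and the 2 mouse pairs often went opposite ways. With limma on the 2 pair ratios and Benjamini-Hochberg adjustment over 13662 genes, 0 of 33 members were higher and 0 lower, with 0% of all genes called in either direction and a smallest adjusted p of 0.256. At an unadjusted p under 0.05 there were 4 members (Adam17, Adam33, Adamts2 and Adamts20), against 14.8% of all genes. With median centring in place of loess, Adam28 and Adamts2 passed, among 899 of all genes. The log2 ratio was above 0 in 26 of 33 members, with a median of 0.15, against 49.1% and a median of -0.00281 over all genes. The 26 include Adam28, Mmp19 and Mmp23, which passed the filter through KO alone. With 2 pairs, a p that misses the threshold does not show that the genotypes were alike. In these bulk samples, fewer cells of a type and less RNA per cell cannot be told apart.

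Pair 1 was below 0 and pair 2 above 0 in 15 of 33 members, against 18.7% of all genes, and the reverse held in 2 of 33, against 14.4%. The pairs lay over 1 apart on the log2 scale in 6 of 33 members, against 3.3% of all genes. The 15 took in the matrilysin Mmp7, the collagenase Mmp13, both gelatinases, all 3 stromelysins, Mmp14, Timp1 and Timp4. They also took in Adam9, Adamts4, Adamts7, Adamts9 and Adamts14. Thus all 7 MMPs tested of the matrilysin, collagenase, gelatinase and stromelysin classes went this way.

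**Figure D1:**
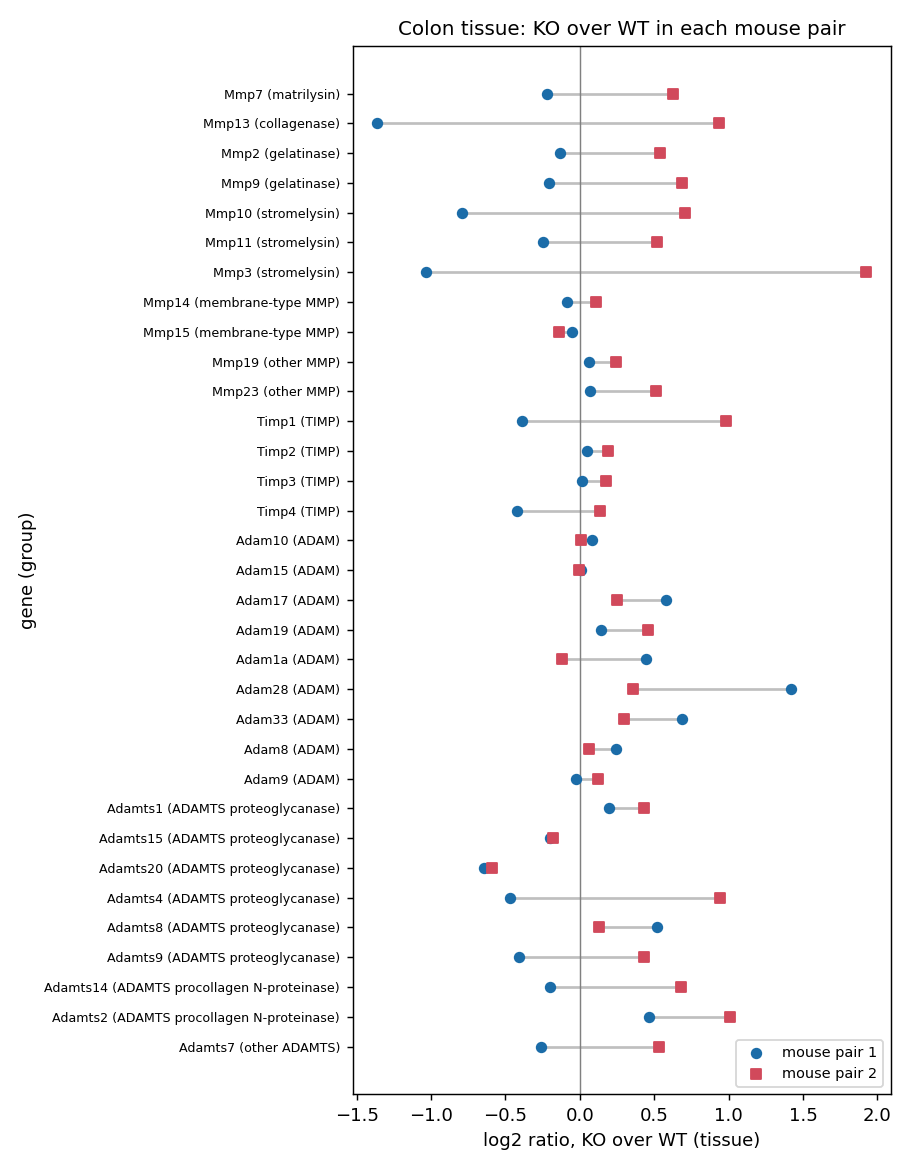
Log2 ratio of KO over WT in colon tissue (x axis) for the 33 members tested (y axis, with their class), as circles for mouse pair 1 and squares for pair 2, each the mean of 2 dye-swapped arrays. Mmp3, Mmp13, Mmp10, Timp1 and Adamts4 lie left of 0 in pair 1 and right of 0 in pair 2, while both symbols of Adamts20 lie near -0.6.

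Mmp3, stromelysin-1, which cuts many matrix proteins and activates other MMPs, had log2 signals of 11.16 in WT and 10.12 in KO of pair 1, and 10.96 in WT and 12.88 in KO of pair 2. The KO mouse of pair 2 was the highest of the 4 and the KO mouse of pair 1 the lowest. Its log2 KO over WT was thus -1.03 and 1.92 (mean 0.44, SE 0.91, limma adjusted p = 0.865). Mmp13, collagenase-3, the main interstitial collagenase of mice, read 12.14 in WT and 10.78 in KO of pair 1, and 8.94 in WT and 9.87 in KO of pair 2. Both mice of pair 1 were above both of pair 2. The ratios were -1.36 and 0.93 (adjusted p = 0.924). Mmp10, stromelysin-2, an enzyme that wounded epithelium is known to make, read 13.47 in WT and 12.68 in KO of pair 1 against 10.60 and 11.30 in pair 2, again with pair 1 above pair 2 in both genotypes.

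Mmp7, matrilysin, which in mouse Paneth cells of the small intestine activates defensins, showed the widest gap between pairs of the 33. Its log2 signal was 17.23 in WT and 17.01 in KO of pair 1, and 10.39 in WT and 11.02 in KO of pair 2. Pair 1 exceeded pair 2 by 6.84 in WT and by 5.99 in KO, while the genotypes within a pair differed by -0.22 and 0.63. A gap of over 4 in both genotypes was seen in 18 of 13662 genes (0.132%) and in 1 of 33 members. The second Mmp7 probe showed the same order, at 15.76 and 15.49 in pair 1 and 8.96 and 9.40 in pair 2. Mmp10 was the other member over 1 higher in pair 1 in both genotypes, with gaps of 2.88 in WT and 1.38 in KO. The labels give no difference between the pairs.

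**Figure D2:**
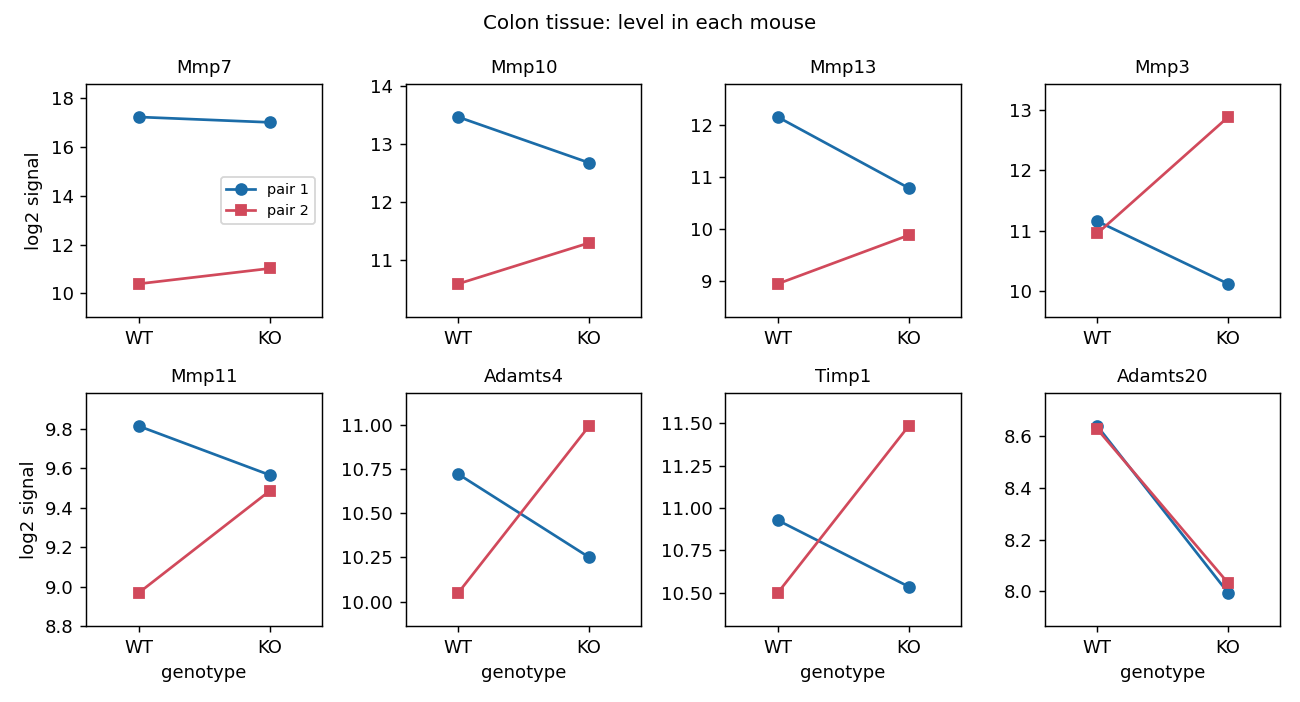
Log2 signal (y axes, each panel on its own scale) of 8 members in WT and KO colon tissue (x axes), with circles and 1 line for mouse pair 1 and squares for pair 2. The pair 1 line of Mmp7 lies near 17 and the pair 2 line near 10 to 11, while Adamts20 is lower in KO in both pairs.

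Of the inhibitors, Timp1, which injured tissue is known to induce, followed the stromelysins: 10.93 in WT and 10.54 in KO of pair 1, and 10.50 in WT and 11.48 in KO of pair 2, for ratios of -0.39 and 0.98. Timp2, which also takes part in activating Mmp2, was between 17.07 and 17.26 in all 4 mice. Timp3, the matrix-bound inhibitor that also blocks Adam17, was 14.23 to 14.81. Timp4 had ratios of -0.42 and 0.14. The mean log2 ratios of the 4 inhibitors ran from -0.14 to 0.30, with adjusted p of 0.537 to 0.795.

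Both pairs had the same sign in 16 of 33 members, against 66.9% of all genes. Adamts20, a versican-cutting enzyme known in mice for its role in pigment cells, had log2 signals of 8.64 and 8.63 in the WT mice. It had 7.99 and 8.03 in the KO mice, so the genotypes did not overlap. How many of all genes lie apart in this way was not counted, so lack of overlap is only a description, here and for the members below. Adamts20 was also lower in KO within each pair. Its log2 ratios were -0.64 and -0.59 (mean -0.62, SE 0.06, limma adjusted p = 0.256), with 1 of its 4 arrays dropped for an outlier spot. With outlier spots kept, the mean was -0.32 (SE 0.21, adjusted p = 0.547), with the authors' deposited value table -1.01 and with the mean of all probes -0.24. It was, with that array dropped, the only member over 1.5-fold lower in both pairs, against 0.995% of all genes, and 0 of 33 were over 1.5-fold higher in both, against 2.39%. The other members with both pairs below 0 were Adamts15 (-0.20 and -0.18) and the membrane-type Mmp15 (-0.06 and -0.14, from 3 of 4 arrays).

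Above 0 in both pairs, Adam28, a lymphocyte and epithelial ADAM, read 7.63 in WT and 9.05 in KO of pair 1, and 9.11 and 9.48 in pair 2. The KO mouse of pair 1 did not exceed the WT mouse of pair 2, so the genotypes overlapped across pairs. Its ratios were 1.42 and 0.36 (mean 0.89, SE 0.33, adjusted p = 0.390). Adam28 was well above background in 4 of 4 KO and 3 of 4 WT channels, so it passed the filter through KO alone. Its second probe gave a mean of 0.48. Adamts2, which removes the amino end of fibrillar procollagen, read 10.23 and 10.27 in WT and 10.70 and 11.28 in KO, without overlap. Its ratios were 0.47 and 1.01 (mean 0.74, SE 0.18, adjusted p = 0.312). Adam33, a mesenchymal ADAM, had 0.69 and 0.30 (mean 0.49, SE 0.13, adjusted p = 0.331). Adam17, the enzyme that releases tumour necrosis factor and EGF receptor ligands, had 0.58 and 0.25 (mean 0.41, SE 0.12, adjusted p = 0.335), and Adamts8 had 0.52 and 0.13. Adam10, which cuts Notch and E-cadherin, stood at 0.08 and 0.01, and Adam15 at 0.01 and -0.01.

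Markers of non-epithelial cells stood mostly above 0 in the same tissue comparison. Fibroblast markers were above 0 in 12 of 12 tested, with a median log2 ratio of 0.23 in pair 1 and 0.57 in pair 2. Macrophage markers (9 of 9) had medians of -0.04 and 0.44, and endothelial markers (7 of 7) of 0.08 and 0.67. Smooth muscle (9 of 9) had 0.22 and 0.09, T cell (5 of 5) -0.05 and 0.31, and neutrophil markers (4 of 6) 0.18 and 0.41. Epithelial markers were above 0 in 1 of 12, with medians of -0.14 and -0.08. The summed fibroblast marker level, on the log2 scale, was 18.86 to 19.00 in WT and 19.05 to 19.08 in KO, that of macrophage markers 17.54 to 17.89 and 17.71 to 17.86, and that of epithelial markers 20.54 to 20.65 and 20.45 to 20.52. Skeletal muscle markers were above 0 in 9 of 9 and squamous markers in 9 of 10. None of these lists had a called gene, and their part in the protease values was not tested.

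In organoids in full medium, no member passed the test between KO and WT. The KO samples also went through recombination and Nutlin-3A selection, which cannot be told apart from the loss of p53. In KO over WT, 0 of 18 members were called, with 0% of 9988 genes called higher and 0% lower and a smallest adjusted p of 0.0635. At an unadjusted p under 0.05 there were 3 members, Adamts1, Adam8 and Mmp11, against 5.45% of all genes. Above 0 were 12 of 18 members, against 61.2% of genes, and the members' median was 0.27 against 0.06. The 12 include Timp4, which passed the filter through KO alone. Over 1.5-fold higher in both replicates were 2 of 18, against 1.77%, and 0 lower, against 0.611%.

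Adamts1, a secreted enzyme that cuts versican and aggrecan, stood highest, with log2 signals of 9.73 and 8.66 in WT and 10.48 and 10.60 in KO. The genotypes did not overlap. Its log2 ratios were 0.75 and 1.94 (mean 1.35, SE 0.30, limma adjusted p = 0.546). Adam8, a sheddase best known from leukocytes, read 10.85 and 9.55 in WT and 11.39 and 11.37 in KO, also without overlap. Its ratios were 0.55 and 1.82 (mean 1.18, SE 0.33, adjusted p = 0.721). Both fits lacked 1 of the 6 arrays, of KOWI and WT, for an outlier spot. Adamts15, another proteoglycanase, had even ratios of 0.72 and 0.73 (mean 0.73, SE 0.51, adjusted p = 1.00), but its levels overlapped, at 10.66 and 9.80 in WT and 11.38 and 10.54 in KO.

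The inhibitors did not move as 1 group. Timp1 was at 7.88 and 6.99 in WT and 8.11 in both KO samples, for ratios of 0.23 and 1.12 (mean 0.67, SE 0.30, adjusted p = 0.940). It was well above background in 2 of 4 WT and 3 of 4 KO channels, and its mean was 1.60 with the scanner software's processed signals and 1.64 with the authors' deposited value table. Timp3 had opposite ratios of -0.17 and 2.15, its WT replicate 2 being the lowest of 6 samples at 10.18. Timp4 was well above background in 4 of 4 KO channels and 0 of 4 WT channels, so that it passed the filter through KO alone. It did not pass the test (limma adjusted p = 0.940), and its plotted ratio rests on a signal not well above background in WT. Timp2 stood at -0.05 and -0.03. Adam10 (0.54 and 0.03), Adam15 (-0.08 and -0.01) and Adam17 (-0.04 and 0.03) had means between -0.04 and 0.29.

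KOWI over WT was the only comparison in which members passed. Adam8, Adamts1 and Mmp11 rose, 3 of 18 tested against 3.3% of all genes, and 0 of 18 fell against 2.03%. Over 1.5-fold higher in both replicates were 6 of 18 members, against 7.99% of genes, and 0 of 18 lower, against 4.9%. The 6 were the 3 called genes with Mmp7, Adamts4 and Timp3. Above 0 were 14 of 18, against 52.2%, with a median of 0.27 against 0.02 for all genes. The 14 include Adam33 and Timp1, which passed the filter through KOWI alone. KOWI differ from WT in both p53 and medium, and these cannot be told apart within this comparison. The steps from WT to KO and from KO to KOWI are given in the other organoid comparisons, each with its own limits.

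Adam8 read 10.85 and 9.55 in WT and 12.84 and 11.84 in KOWI, so that both KOWI samples were above both WT samples. Its log2 ratios were 2.00 and 2.29 (mean 2.14, SE 0.33, 4.42-fold, limma adjusted p = 0.0319). Adamts1 read 9.73 and 8.66 in WT and 11.29 and 10.98 in KOWI, also apart. Its ratios were 1.57 and 2.32 (mean 1.94, SE 0.30, 3.84-fold, adjusted p = 0.0332). For both, the direct array of KOWI replicate 1 and WT replicate 2 was dropped for an outlier spot, and the value runs through the other 5 arrays. With all outlier spots kept, where 6 of 14660 genes tested were called in place of 533 of 9988, the means were 1.49 (adjusted p = 0.114) and 1.27 (adjusted p = 0.241), and neither passed. A second, much dimmer Adam8 probe, not above background in organoids, gave 0.21, and the mean of both probes 0.69 (adjusted p = 0.207).

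Mmp11, stromelysin-3, an MMP that furin activates inside the cell and that is best known from stroma around tumours, had all 6 arrays. It read 7.53 and 7.47 in WT, 8.04 and 7.81 in KO and 8.60 and 8.62 in KOWI, with no overlap between any of the 3 groups. The share of all genes without overlap was not counted. Its KOWI over WT ratios were 1.07 and 1.15 (mean 1.11, SE 0.17, 2.15-fold, adjusted p = 0.0319). It was well above background in 3 of 4 WT channels and in 4 of 4 of KO and of KOWI. With all outlier spots kept, its ratio was the same and its adjusted p 0.0843. The scanner software's processed signals gave it a mean of 1.78 (adjusted p = 0.0526), and the authors' deposited value table one of 1.85 (adjusted p = 0.0312).

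The calls did not all hold when 1 sample was left out, but such fits lose arrays and leave a group with 1 sample. A lost call therefore does not show that it depended on that sample. Leaving out any 1 of the 6 samples left between 0 and 2 members called, out of 11 to 16 that could still be fitted. Adam8 kept a log2 ratio of 1.75 and Adamts1 of 1.46 without WT replicate 2, and 1.97 and 2.02 without KOWI replicate 1, none past the threshold (adjusted p of 0.0652 to 0.107). Neither could be fitted in the other 4 omissions. Mmp11 ranged from 1.02 to 1.23 over the 6 omissions and passed only without KO replicate 1 (adjusted p = 0.0209).

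**Figure D3:**
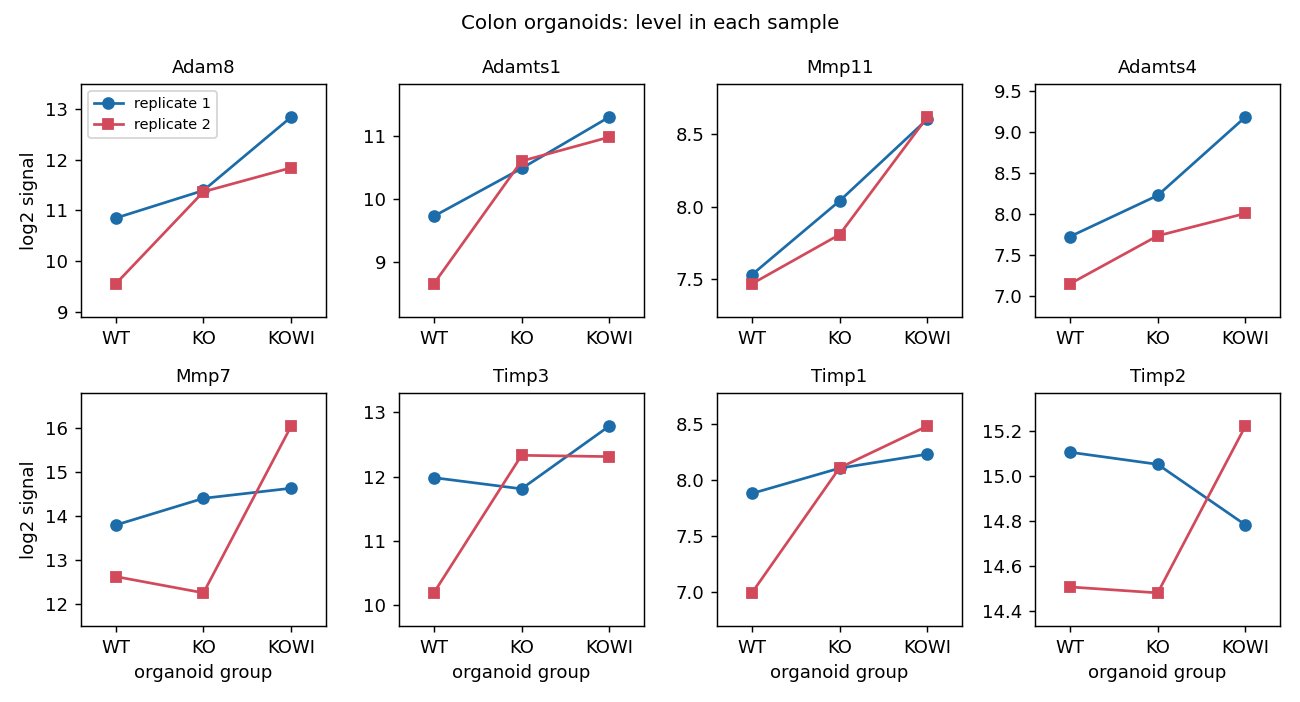
Log2 signal (y axes, each panel on its own scale) of 8 members in WT, KO and KOWI organoids (x axes), with circles for replicate 1 and squares for replicate 2. Adam8, Adamts1 and Mmp11 are lowest in WT and highest in KOWI on the mean, and Mmp7 has its highest value in KOWI replicate 2.

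Below the threshold, Adamts4, an aggrecanase known to respond to inflammatory signals, read 7.72 and 7.15 in WT and 9.18 and 8.01 in KOWI. Its ratios were 1.46 and 0.86 (mean 1.16, SE 0.23, adjusted p = 0.0504), and its second probe gave a mean of 0.88. Mmp7 was uneven: 13.79 and 12.62 in WT, 14.39 and 12.25 in KO, and 14.62 and 16.03 in KOWI. The ratios were 0.83 and 3.42 (mean 2.13, SE 0.80, adjusted p = 0.195), from 5 arrays. Its second probe, similarly bright, gave a mean of 0.07, so the 2 probes disagree. Without KOWI replicate 1 the main probe gave 3.66 (adjusted p = 0.0207).

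Timp3 read 11.98 and 10.18 in WT and 12.79 and 12.31 in KOWI, from 5 arrays. Its ratios were 0.81 and 2.13 (mean 1.47, SE 0.52, adjusted p = 0.175), and without WT replicate 2 the value was 0.56. Timp1, also from 5 arrays, had 0.35 and 1.49 (mean 0.92, SE 0.30, adjusted p = 0.150). Timp2 had a mean of 0.20, and Timp4 was well above background in 1 of 4 KOWI and 0 of 4 WT channels. The proteases Adam15 (-0.18), Adam17 (-0.26) and Adam1a (-0.28), the last known from mouse testis, were below 0 in both replicates. Adam10, Adam11, Adam9, Adam33, Mmp15 and Adamts15 had means of -0.14 to 0.29, with adjusted p of 0.500 to 0.884. Of the 6 members that could not be fitted, keeping outlier spots gave log2 ratios of -0.39 for Mmp14, the membrane enzyme that activates Mmp2, to 0.17 for Adam2, none called.

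KOWI over KO, the same genotype in different media, had 0 of 18 members called, against 0.16% of genes higher and 0.25% lower. At an unadjusted p under 0.05 there were 4 of 18, Mmp11, Adam8, Adamts4 and Adam1a, against 14.2%. Mmp11 had 0.56 and 0.81 (mean 0.68, SE 0.17, adjusted p = 0.156). Adam8 had 1.45 and 0.47 (mean 0.96, SE 0.33, adjusted p = 0.275), Adamts4 0.96 and 0.27 (mean 0.62, SE 0.23, adjusted p = 0.308) and Adamts1 0.81 and 0.38 (mean 0.60, SE 0.30, adjusted p = 0.495). All 4 were higher in KOWI in 2 of 2 replicates. Mmp7 had a mean of 2.01 by its brightest probe, from ratios of 0.23 and 3.79 (SE 0.80, adjusted p = 0.352), but 0.02 by its second probe and 0.83 by the mean of both. Adam1a stood at -0.40 and -0.67 (mean -0.54, SE 0.19, adjusted p = 0.284), the lowest of the 18, followed by Adam17 (-0.25), Timp4 (-0.20) and Adam15 (-0.13) among those with 1 sign. Above 0 were 11 of 18 members, against 44.5% of genes. The 11 include Adam33 and Timp1, which passed the filter through KOWI alone. The 3 organoid comparisons share samples, so their values stand side by side and were not correlated.

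**Figure D4:**
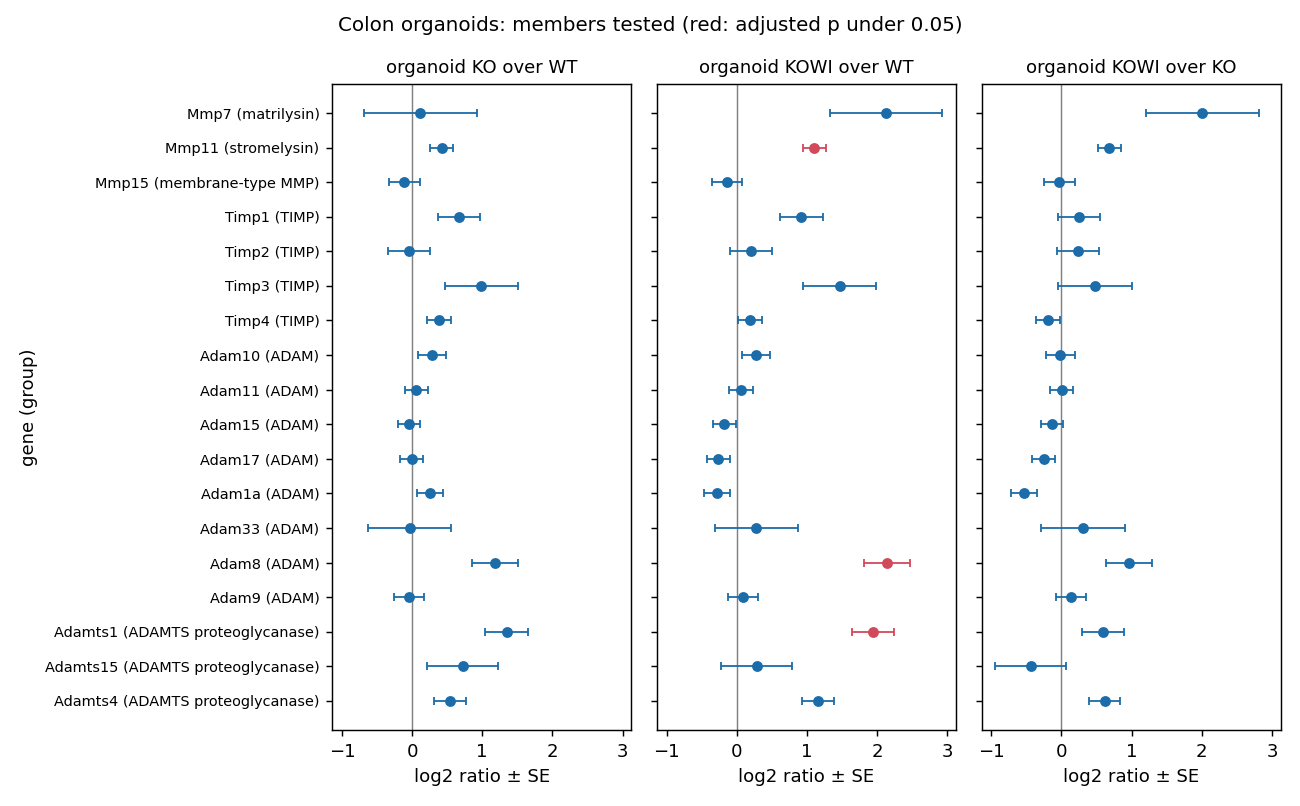
Log2 ratio with its SE (x axes) for the 18 members tested in organoids (y axis, with their class), with 1 panel each for KO over WT, KOWI over WT and KOWI over KO. The 3 red points, all in the middle panel, are Adam8, Adamts1 and Mmp11, with ratios of 2.14, 1.94 and 1.11.

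Markers of other cell types differed in how many could be read in organoids. Of the fibroblast markers only 1 could be tested, at -0.39 in KOWI over WT. The summed log2 level of the 11 with values was 10.49 to 10.55 in WT, 10.68 to 10.69 in KO and 10.41 to 10.48 in KOWI. Since 6 of 13 were well above background in no channel, that sum includes background signal and is no measure of fibroblast amount. Of 10 macrophage markers, 4 were well above background in all 12 channels, among them Lyz2, and 4, Adgre1, C1qc, Cd163 and Fcgr1, were in none. The summed level of the 8 with values was 10.50 to 11.03 in WT, 11.17 to 11.59 in KO and 11.18 to 12.27 in KOWI. Of 8 neutrophil markers, Mpo, Cxcr2 and Retnlg were in none and 4 were in all 12 channels. The summed level of the 6 with values was 15.70 to 15.71 in WT, 15.57 to 15.81 in KO and 15.57 to 15.62 in KOWI. Of 7 T cell markers, 2, Cd3e and Cd4, were in all 12 channels and 1 in none. Of 9 smooth muscle markers, 4 were in all 12 channels and 2 in none. Of 10 squamous markers, 7 were in all 12 and 1 in none, and 5 of 6 tested were above 0 in KOWI over WT, with a median of 0.43. Of 8 endothelial markers, 2 were in all 12 channels and 5 in none. Flt1 alone differed between groups, being in 4 of 4 KOWI channels and in 0 of 4 WT and 0 of 4 KO channels. The part of such cells in the protease values was not tested.

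The KO effect was then set between tissue and organoids, as the difference of their ratios, in a separate limma fit on 2 tissue pair ratios and 2 organoid replicate ratios. Of 17 members tested in both, 0 passed, with 0% of 9097 genes called. Adamts15 had the smallest adjusted p, with -0.19 in tissue and 0.73 in organoids (difference -0.92, SE 0.12, limma adjusted p = 0.208). That SE holds only the spread among the 4 ratios, with organoid ratios of 0.72 and 0.73, while the 6-sample fit gave the organoid value an SE of 0.51. Adam8 (0.15 in tissue, 1.18 in organoids) and Adamts1 (0.32 and 1.35) each differed by -1.03, with adjusted p of 0.443 and 0.430. Adam17 went the other way, with 0.41 in tissue and -0.01 in organoids (difference 0.42, SE 0.16, adjusted p = 0.412).

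Other genes of pericellular proteolysis, a list of 38 that the name rule leaves out, were read in the same fits. In KOWI over WT, 2 of 18 tested rose, against 3.3% of all genes, and 1 fell, against 2.03%. Plau, urokinase, which turns plasminogen into plasmin and so starts MMP activation, rose (adjusted p = 0.0341). It was well above background in 4 of 4 KOWI, 4 of 4 KO and 0 of 4 WT channels. On the measured signals this put KOWI at least 1.90-fold and KO at least 1.54-fold above WT. These bounds allow for signals below background in WT but not for the spread between samples. For these bounds a group mean was set against the lowest signal well above background in WT or the probe's own, whichever was higher. The fitted log2 ratio of Plau was 0.77 in KO over WT (limma adjusted p = 0.596) and 0.40 in KOWI over KO (limma adjusted p = 0.449). Adamtsl4, an ADAMTS-like matrix protein without a protease domain, rose by 1.30 on the log2 scale (SE 0.16, adjusted p = 0.0233). Mep1a, the brush-border metalloproteinase meprin alpha, fell by 2.45 on the log2 scale (SE 0.28, adjusted p = 0.0205). In KO over WT 0 of 18 were called, against 0% of all genes, and in KOWI over KO 0 of 18, against 0.16% higher and 0.25% lower. Mep1a stood at -1.53 (adjusted p = 0.413) and -0.92 (adjusted p = 0.227).

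In tissue 0 of 28 genes of that list were called, against 0% of all genes. Above 0 were 16 of 28, against 49.1%, and the median was 0.08. The highest fitted mean was that of Tll1, a procollagen C-proteinase of the tolloid family, with 1.76 and 1.30 (mean 1.53, SE 0.15, adjusted p = 0.256). It was well above background in 4 of 4 KO and 2 of 4 WT channels, so it passed the filter through KO alone. Reck, a membrane-anchored inhibitor of MMPs, had 1.05 and 1.49 (mean 1.27, SE 0.15, adjusted p = 0.256), and Adamtsl1 had 1.06 and 0.89 (mean 0.98, SE 0.08, adjusted p = 0.256). All 3 had ratios above 0 in 2 of 2 pairs, and Reck and Adamtsl1 were well above background in all 8 tissue channels. An adjusted p of 0.256 was the smallest reached by any gene in tissue.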

How the data were processed

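Transcript levels were measured on 10 Agilent 2-colour arrays, 4 of them with tissue of 2 KO and 2 WT mice and 6 with organoids, 2 samples for each of the 3 groups. Per the file headers, the authors extracted spot intensity with Feature Extraction 12.2.0.7 under protocol GE2_1200_Dec17, array design 074809, with probe positions on mm9. The mean and background intensity columns used here were deposited without normalization. The authors' deposited value table holds log2 ratios of Cy5 over Cy3, made with limma per the submitters' processing notes, which give no version. Its slope on the deposited log10 ratio of the scanner software, put on the log2 scale, was 0.970 to 1.00, and its column medians were -0.000581 to 0.0171. How it was centred stays unknown.

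Ratios were recomputed in R 4.3.3 with limma 3.58.1: normexp with an offset of 50, then loess within arrays, with no weight on control and outlier spots. Outlier spots were set missing and spots of a probe averaged. A gene was read by its brightest probe and tested where 1 group or more had that probe well above background in all its channels. All 155 member probes carried the same symbol in a RefSeq table (GRCm38.p6), which served for names and promoters. Levels are log2 signals per sample, after Aquantile scaling in tissue and from the least-squares sample values in organoids.

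In tissue, dye-swapped arrays were turned alike and averaged, and limma tested the 2 resulting ratios against 0. Organoid ratios gave 6 sample values by least squares, and limma tested the group with the replicate number, which is also the dye, as a second term. p-values were adjusted by Benjamini-Hochberg over all genes of a comparison, at a threshold of 0.05. The tissue and organoid KO effects were compared in a fit of their own, on 2 pair and 2 replicate ratios. The number of arrays limits the precision. Changes planted in simulated log ratios were used to test the fits within tissue and within organoids, not the other steps.

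The members, gene lists and tests were chosen with earlier results of these data known. Members given with full values are those past the threshold and the 5 highest and 5 lowest log2 ratios with the same sign in both replicates or pairs. Others, such as Mmp3, Mmp10, Mmp13 and Timp1 in tissue and Timp3 and Tll1, were named after their values were seen. For 1 tissue array, the title's replicate number was taken over the one in its Cy3 source name. Alternatives covered the signals, centring, filter, outlier spots, probe choice, unit of replication, replicate term and each sample left out. The use of the median of a spot's pixels was added after the data were seen.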

Additional observations from a re-analysis of the deposited data

How the results depend on the processing

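The count of members past the test rested on the processing in KOWI over WT, where it was 3. It was 0 from the scanner software's processed signals (148 of all genes called), 1 from the authors' value table (Mmp11, 258 genes), 1 with no filter on dim probes (Mmp11, 245 genes), 0 with outlier spots kept (6 genes), 0 with the median of a spot's pixels and outlier spots kept (0 genes), and 8 with arrays taken as independent (3702 genes), against 533 genes in the main setting. It was 2 with median centring (194 genes) and 2 without the replicate block (Adamts1 and Mmp11). With the median of a spot's pixels it was 4, where Adamts4 joined. Adamts4 also joined the 3 with the brightest probe under log2 14. With a stricter filter on dim probes, which Mmp11 did not pass, Adam8 and Adamts1 were called. The count was 2 with the mean of all probes of a gene (Adamts1 and Mmp11), where Adam8 had 0.69 in place of 2.14. Leaving out 1 sample in turn gave 0 to 2. Median centring gave 2 members in tissue and 899 genes, against 0 and 0, and arrays taken as independent gave 1 in tissue, 4 in organoid KO over WT and 5 in KOWI over KO. The causes were not tested. The other counts, 65 of 80 with their main values, kept to within 1.5 times, and the tissue-minus-organoid count was 0 in every alternative run for it.

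Signs turned in few members. In organoid KO over WT, Adam15 was 0.031 and Timp2 0.11 with the mean of all probes, and Adam15 was 0.10 with the brightest probe under log2 14. Leaving out 1 mouse in tissue, on separate channels without the pair, gave Adam33 -0.088 to 1.07, Adamts8 -0.035 to 0.69 and Adamts15 -0.53 to 0.15, and leaving out 1 organoid sample gave Timp2 -0.31 to 0.23 in KO over WT. Such fits leave an arm with 1 sample, which is assumed to vary like the others. In tissue no fit by replicate number was added, since the pair ratios already hold it, and without the pair 0 members were called. Over the log2 values of named members and alternatives, 476 kept their direction and side of the threshold, 25 lost and 19 gained a call, and 9 turned sign. Mmp11 and Timp1 lie near background in WT organoids, which limits their ratios.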
